A study of Mus musculus with 4 samples.

Results

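Dntt, Satb1 and Il12a are 3 of the 32265 genes listed for single bone marrow cells of C57BL/6 mice, and they were taken by name as genes of early lymphoid cells. They had been picked with their levels in these libraries known, so what follows describes them and tests nothing. The cells had been sorted as LSK cells, that is lineage-negative cells positive for Sca1 and cKit, and were read by inDrop, a droplet method that tags each captured transcript with a unique molecular identifier (UMI). There were 4 groups of 1 library each: mice labelled CML (chronic myeloid leukaemia) given imatinib, untreated CML mice, wild-type (WT) mice given imatinib, and untreated WT mice. Imatinib, a tyrosine kinase inhibitor that blocks BCR-ABL and also KIT, was given by gavage at 400 mg/kg every other day; the protocol gives 30 days and another label gives 4 weeks. How CML was produced, and the number and age of the mice behind each library, are not given in the sources used here.

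Lymphoid priming is the low-level onset of lymphoid genes in multipotent progenitors before commitment. Dntt encodes terminal deoxynucleotidyl transferase, which adds untemplated nucleotides where V, D and J segments of antigen receptor genes are joined. Satb1 encodes a chromatin organiser needed for the lymphoid differentiation of stem cells and for T cell development. Il12a encodes the alpha subunit of interleukin 12, which pairs with the product of Il12b, and it also pairs with the product of Ebi3 to form interleukin 35. The genes set beside them mark other states of the same cells: Flt3, a cytokine receptor of multipotent progenitors with lymphoid potential; Hlf, a transcription factor of stem cells; and Elane, the neutrophil elastase of granulocyte precursors.

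In GENCODE vM21 (GRCm38), Dntt lies on the plus strand of chromosome 19 from 41029275 to 41059525, and Il12a on the plus strand of chromosome 3 from 68690644 to 68698547, with no overlapping gene. Satb1 lies on the minus strand of chromosome 17 from 51736187 to 51833290, where 5 annotated genes overlap it on its own strand and 1 on the other, and whether strand was used in counting is not given, so part of its UMIs could belong to these. The 3 promoter windows below, from RefSeq on GRCm38.p6, run from 250 bases before to 50 bases after the outermost start of each gene; they are shown because the 3 genes were lower together in both imatinib libraries. They are chr19:41029025-41029324 on the plus strand for Dntt, chr17:51833241-51833540 on the minus strand for Satb1 and chr3:68690394-68690693 on the plus strand for Il12a, each written 5′ to 3′ along the gene. Capitals mark matches, on either strand, to the E-box CANNTG, bound by E proteins such as the product of Tcf3, the Ikaros-type core TGGGAA, the Runx-type core TGTGGT and the PU.1-type core GAGGAA.
Dntt: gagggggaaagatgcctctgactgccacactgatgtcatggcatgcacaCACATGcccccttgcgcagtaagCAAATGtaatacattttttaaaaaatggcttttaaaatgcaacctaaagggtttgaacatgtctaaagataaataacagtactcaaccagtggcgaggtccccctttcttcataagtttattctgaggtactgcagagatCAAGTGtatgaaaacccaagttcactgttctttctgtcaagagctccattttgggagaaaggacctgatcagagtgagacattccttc
Satb1: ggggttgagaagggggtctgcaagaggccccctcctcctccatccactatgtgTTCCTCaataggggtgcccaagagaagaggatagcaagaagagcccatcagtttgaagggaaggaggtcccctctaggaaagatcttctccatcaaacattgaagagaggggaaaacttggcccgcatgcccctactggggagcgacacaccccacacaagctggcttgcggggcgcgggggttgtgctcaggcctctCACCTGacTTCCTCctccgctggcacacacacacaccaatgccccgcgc
Il12a: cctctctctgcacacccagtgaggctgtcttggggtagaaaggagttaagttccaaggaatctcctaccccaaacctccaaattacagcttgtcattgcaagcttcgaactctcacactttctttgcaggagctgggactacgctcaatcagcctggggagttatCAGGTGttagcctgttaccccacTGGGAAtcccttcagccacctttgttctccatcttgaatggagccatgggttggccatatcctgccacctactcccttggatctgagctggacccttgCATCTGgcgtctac
The Dntt window held 3 E-boxes and no match to the other motifs. The Satb1 window held 1 E-box and 2 PU.1-type matches, and the Il12a window held 2 E-boxes and 1 Ikaros-type match. No marked matches overlapped. Among all 32851 promoter windows of the same length, 72.3% held an E-box, 25.6% the Ikaros-type core, 16.8% the Runx-type core and 28.3% the PU.1-type core, so each motif found is a common one. The G and C content was 42.3% for Dntt, 59.0% for Satb1 and 52.0% for Il12a, against a median of 52.7% over all windows.

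After filtering, the libraries held 5139 (CML imatinib), 3032 (CML untreated), 4187 (WT imatinib) and 3030 (WT untreated) cells, with median depths of 1198, 5160.5, 1486 and 3637.5 UMIs per cell. The deposited cells reached down to 200 UMIs in both imatinib libraries but only to 1006 in the CML untreated and 1001 in the WT untreated library. Against the LSK label, Kit was detected in 14.2% and 20.9% of imatinib cells (CML, WT) and in 40.5% and 34.6% of untreated cells (CML, WT). Ly6a, which encodes Sca1, was detected in 6.65% and 8.07% of imatinib cells and in 22.9% and 21.7% of untreated cells, again CML before WT. These shares were taken without equal depth, and the imatinib cells were shallower. Scaled to the UMIs of the library, Kit and Ly6a together lay closer. They summed to 194 CPM (CML imatinib), 245 CPM (CML untreated), 226 CPM (WT imatinib) and 328 CPM (WT untreated). Between 80 and 1135 cell barcode names were shared by a pair of libraries, but cells of the same name had unrelated profiles (median r between -0.0039 and 0.0031).

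Levels are in CPM, the UMIs of a gene per 1000000 UMIs of its library. Dntt had 8.18 CPM (CML imatinib), 123 CPM (CML untreated), 8.37 CPM (WT imatinib) and 192 CPM (WT untreated). It was thus near 8 CPM in both imatinib libraries and more than 10 times that level in both untreated ones. Satb1 had 61.9 CPM (CML imatinib), 176 CPM (CML untreated), 83.1 CPM (WT imatinib) and 171 CPM (WT untreated). Il12a had 23.4 CPM (CML imatinib), 82.4 CPM (CML untreated), 24.1 CPM (WT imatinib) and 108 CPM (WT untreated). All 3 genes were lowest in the imatinib libraries, and for each gene the counting intervals of the 2 imatinib libraries lay below those of the 2 untreated ones. Neighbours in the order that cannot be told apart by counting error are the 2 imatinib libraries for Dntt and Il12a and the 2 untreated libraries for Satb1. In these summed levels, fewer positive cells and less RNA per positive cell cannot be told apart.

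**Figure D1:**
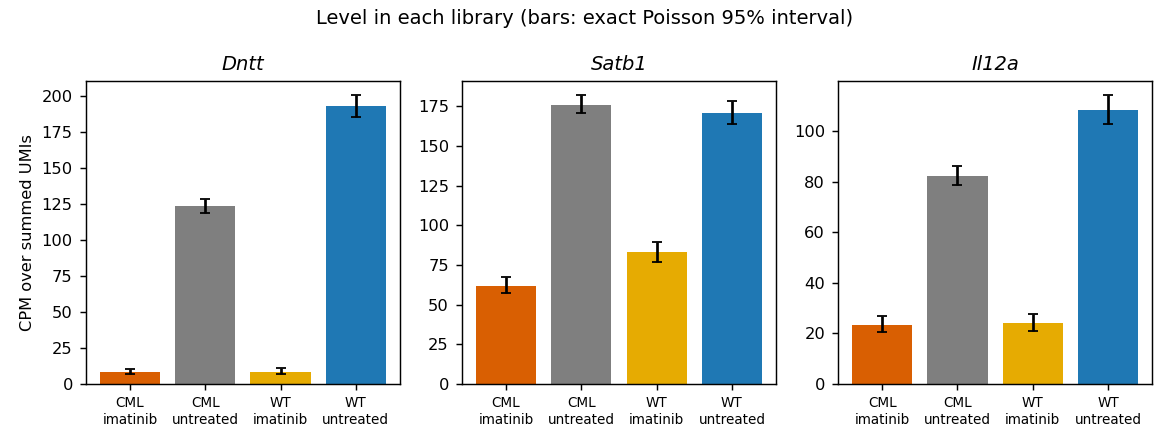
Level of Dntt, Satb1 and Il12a in each library, in CPM over the summed UMIs of kept cells; bars show 1 library each and error lines the exact Poisson 95% interval, which covers counting error only. Dntt stands at 8.18 and 8.37 CPM in the imatinib libraries (CML, WT), against 123 and 192 CPM in the untreated ones (CML, WT).

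In CML mice, Dntt was 15.1-fold lower with imatinib than without (95% counting interval 12 to 19.1; log2 ratio -3.91). Satb1 was 2.84-fold lower (2.61 to 3.11; log2 ratio -1.51) and Il12a was 3.53-fold lower (3.07 to 4.07; log2 ratio -1.82). All 3 genes were at least 2-fold lower, where 7.95% of the 4265 genes measured in that pair of libraries were at least 2-fold lower, 9.4% at least 2-fold higher and 17.4% either. A gene counts as measured if the library with its higher level holds 50 CPM and 50 UMIs or more. These ratios helped to choose the genes, so nothing is read from that count.

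In WT mice the order of the genes was the same. Dntt was 23.0-fold lower with imatinib (18.1 to 29.7; log2 ratio -4.52), Il12a 4.49-fold lower (3.87 to 5.24; log2 ratio -2.17) and Satb1 2.06-fold lower (1.89 to 2.25; log2 ratio -1.04). All 3 again passed 2-fold, where 5.45% of 4092 measured genes were that much lower, 7.58% that much higher and 13% either; this count too was used in the choice. The 2-fold call of Satb1 in WT mice was lost in 4 of 12 alternative settings: its log2 ratio was -0.77 with every cell thinned to 500 UMIs, -0.78 with each cell weighted equally, -0.90 without cells of repeated or shared barcode names, and -0.99 with no cell filter.

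Between the untreated libraries, over all their cells, none of the 3 genes was 2-fold apart, where 0.915% of 3824 measured genes were (0.523% higher and 0.392% lower in CML). Dntt was lower in CML than in WT mice (log2 ratio -0.64, -0.72 to -0.56), as was Il12a (-0.40, -0.50 to -0.29), while the interval of Satb1 included 0 (0.04, -0.03 to 0.12) and its sign held in 7 of 12 alternative settings. With only cells of 1000 to 3000 UMIs, a setting chosen after the data were seen, Dntt and Il12a did reach 2-fold, at log2 ratios of -1.10 and -1.13. Between the imatinib libraries 0 of the 3 genes were called, against 2.5% of 3914 measured genes (2.32% higher and 0.179% lower in CML), and only Satb1 passed the floor for measurement, at a log2 ratio of -0.42 for CML against WT (-0.58 to -0.26). Dntt (-0.03, -0.52 to 0.46) and Il12a (-0.05, -0.33 to 0.24) were too scarce there for that floor, and their signs held in 9 (Dntt) and 8 (Il12a) of 12 alternatives. The comparisons share libraries and are not independent of one another.

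Dntt UMIs came from few cells. A Dntt UMI was found in 36 of 5139 cells (0.701%) of the CML imatinib library, 355 of 3032 (11.7%) of the CML untreated, 28 of 4187 (0.669%) of the WT imatinib and 418 of 3030 (13.8%) of the WT untreated library. A positive cell held at most 8 Dntt UMIs (CML imatinib), 76 (CML untreated), 7 (WT imatinib) or 63 (WT untreated). Cells with 5 or more Dntt UMIs numbered 5 (CML imatinib), 140 (CML untreated), 3 (WT imatinib) and 182 (WT untreated), and in the untreated libraries they carried 84.1% (CML) and 81.6% (WT) of all Dntt UMIs. Most Dntt UMIs thus lay in a small, strongly positive set of untreated cells.

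Satb1 was spread more widely: 7.06% of CML imatinib cells, 32.7% of CML untreated cells, 11.3% of WT imatinib cells and 31.1% of WT untreated cells had a UMI. Il12a was found in 2.63% (CML imatinib), 16.8% (CML untreated), 3.61% (WT imatinib) and 23.0% (WT untreated) of cells. For both genes the positive cells were deeper than the negative ones in every library. Deeper cells show a gene more often, so the shares were also taken with every cell thinned to 1000 UMIs, which left out 2059 CML imatinib and 1318 WT imatinib cells and no untreated ones.

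At 1000 UMIs the Dntt share was 0.390% (CML imatinib), 6.30% (CML untreated), 0.558% (WT imatinib) and 9.08% (WT untreated). The Satb1 share was 4.94% (CML imatinib), 13.4% (CML untreated), 6.52% (WT imatinib) and 14.3% (WT untreated). The Il12a share was 2.34% (CML imatinib), 5.61% (CML untreated), 2.54% (WT imatinib) and 9.54% (WT untreated). The shares thus stayed lower in the imatinib libraries at equal depth for all 3 genes, with exact binomial intervals apart in both CML and WT mice. At 1000 UMIs the intervals of the 2 untreated libraries were apart for Dntt and Il12a and overlapped for Satb1. At 500 UMIs those of Il12a overlapped too, at 4.06% (CML untreated) and 5.15% (WT untreated), while Dntt stayed apart at 4.49% and 6.40%.

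**Figure D2:**
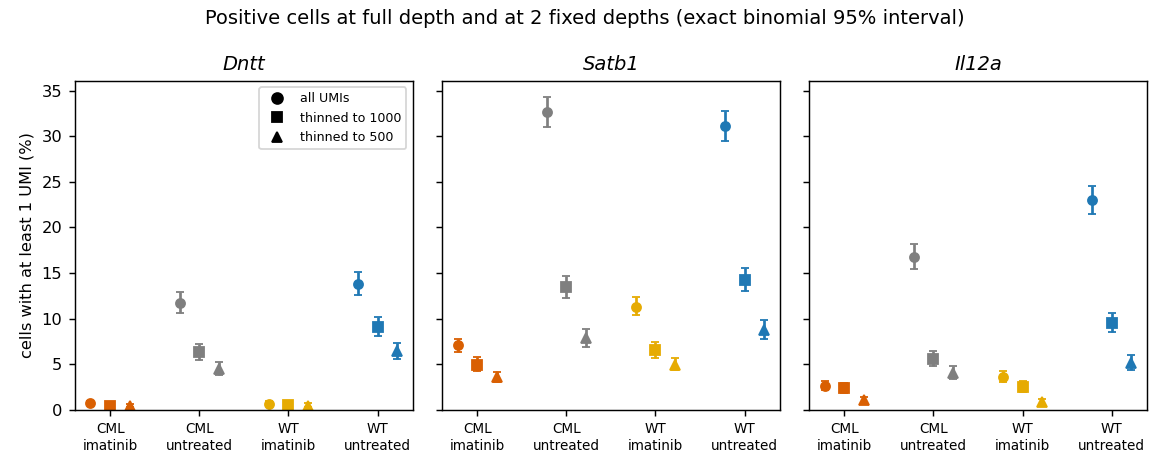
Percent of cells with at least 1 UMI of Dntt, Satb1 or Il12a in each library, with all UMIs (circles) and with cells thinned to 1000 (squares) or 500 UMIs (triangles); error lines are exact binomial 95% intervals and each point is 1 library. At 1000 UMIs Satb1 stands at 4.94% and 6.52% in the imatinib libraries (CML, WT), against 13.4% and 14.3% in the untreated ones (CML, WT).

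Free RNA in droplets gives some UMIs to cells that do not express a gene, so the same shares were read in erythroid-like, neutrophil-like, mast cell and basophil-like and plasma cell-like clusters, which should lack Dntt. There the Dntt share was 0.425% of 706 cells (CML imatinib), 2.18% of 275 (CML untreated), 0.290% of 345 (WT imatinib) and 2.12% of 283 (WT untreated), at median depths of 1127, 6078, 1064 and 4913 UMIs. The share over all cells exceeded this level beyond counting error in both untreated libraries, but in both imatinib libraries the intervals overlapped, so over all cells the Dntt share there was not above this level beyond counting error. The Dntt UMIs of the imatinib libraries were not spread evenly, though: as given with Flt3 further on, they were more frequent in Flt3-positive cells at full depth and at 500 UMIs. Il12a in the same clusters was at 0.708% (CML imatinib), 2.55% (CML untreated), 1.45% (WT imatinib) and 1.77% (WT untreated), and only in WT imatinib cells did its interval overlap that of all cells. Satb1 was at 6.52% (CML imatinib), 11.3% (CML untreated), 12.8% (WT imatinib) and 6.71% (WT untreated), so that in both imatinib libraries its share over all cells was no higher than in these clusters beyond counting error. The clusters were chosen as lacking Dntt, not Satb1 or Il12a. Their Satb1 shares were uneven, as with 39.4% of 33 mast cell and basophil-like and 6.93% of 202 erythroid-like CML untreated cells. For Satb1 and Il12a the pooled shares are thus not read as a level of free RNA. The untreated libraries held no neutrophil-like cells.

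Flt3, the receptor that marks lymphoid-capable progenitors, was itself at 13.5 CPM (CML imatinib), 158 CPM (CML untreated), 25 CPM (WT imatinib) and 171 CPM (WT untreated). At 1000 UMIs, Dntt was found in 18.6% of Flt3-positive and 4.70% of Flt3-negative cells of the CML untreated library, and in 24.7% and 6.53% of those of the WT untreated library. Dntt was thus more frequent beside Flt3 in both untreated libraries, with intervals apart. In WT imatinib cells 4 of 72 Flt3-positive cells had Dntt (5.56%, against 0.429% of Flt3-negative cells), also with intervals apart. In CML imatinib cells the value depended on the setting. At 1000 UMIs, which leaves out 2059 of these cells, 0 of 30 Flt3-positive cells had Dntt, which allows a share of up to 10%. At 500 UMIs 4 of 55 did (7.27%, against 0.354% of Flt3-negative cells) and without thinning 8 of 101 (7.92%, against 0.556%), with intervals apart in both settings. Without thinning, 70.1% of Dntt-positive CML untreated cells and 73.4% of Dntt-positive WT untreated cells also had Flt3. Over all cells, Flt3 was in 29.5% (CML untreated) and 30.1% (WT untreated). The Dntt-positive cells were also deeper, with medians of 5853 against 4990 UMIs in Dntt-negative cells (CML untreated) and 3855 against 3611.5 (WT untreated).

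Satb1 was likewise more frequent beside Flt3. It was found in 27.8% of Flt3-positive and 11.6% of Flt3-negative CML untreated cells, in 18.1% and 6.22% of WT imatinib cells, and in 32.7% and 11.2% of WT untreated cells, with intervals apart in each. In CML imatinib cells 3 of 30 Flt3-positive cells had Satb1 (10%), against 4.89% of Flt3-negative cells, and the intervals overlapped, as they did at 500 UMIs; without thinning 15 of 101 had it (14.9%, against 6.91%), with intervals apart. Il12a was found in 11.2% of Flt3-positive and 4.88% of Flt3-negative CML untreated cells and in 21.2% and 7.64% of WT untreated cells. In imatinib cells the Il12a intervals overlapped, with 2 of 30 (CML) and 3 of 72 (WT) Flt3-positive cells holding it.

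With Hlf, the stem cell factor, no difference was detectable in the untreated libraries at 1000 UMIs, but for Satb1 this depended on the setting. Dntt was found in 5.20% of Hlf-positive and 6.40% of Hlf-negative CML untreated cells and in 9.22% and 9.07% of WT untreated cells. Satb1 was in 13.6% and 13.4% of CML untreated and 16.0% and 14.1% of WT untreated cells with and without Hlf, and Il12a in 6.80% and 5.50% (CML untreated) and 9.71% and 9.53% (WT untreated). All 6 pairs of intervals overlapped, which limits a difference only to the width of those intervals, such as 2.80% to 8.73% for Dntt in Hlf-positive CML untreated cells. At 1000 UMIs the only pair with Hlf that was apart was Satb1 in WT imatinib cells, at 7 of 38 Hlf-positive cells (18.4%) against 6.36% of Hlf-negative ones. At 500 UMIs Satb1 was also more frequent with Hlf in CML imatinib cells (13.7% against 3.46%) and CML untreated cells (14.8% against 7.51%), with intervals apart, and both stayed apart without thinning. In WT untreated cells the Satb1 intervals overlapped in each of these settings.

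Elane, the granulocyte gene, was seldom found with Dntt in untreated cells. In untreated cells Dntt was found in 1.18% of Elane-positive and 7.55% of Elane-negative cells (CML) and in 2.29% and 10.4% (WT). In the imatinib libraries most of the few Dntt-positive cells had Elane without thinning. Of 36 such CML imatinib cells, 18 had Elane without Flt3 and 4 had both. Of 28 such WT imatinib cells, 10 had Elane without Flt3 and 9 had both. Elane was in 78.7% (CML imatinib) and 81.0% (WT imatinib) of all cells there. Satb1 was in 9.92% and 14.3% of CML untreated, 5.70% and 12.6% of WT imatinib and 9.38% and 15.2% of WT untreated cells with and without Elane; at 500 UMIs the Satb1 intervals of the CML untreated library overlapped. In the untreated libraries the order for Satb1 was the opposite without thinning: it was found in 36.7% of Elane-positive and 31.0% of Elane-negative cells (CML) and in 35.9% and 29.8% (WT), where Elane-positive cells had median depths of 7271 (CML) and 6321 (WT) UMIs, against 4498 and 3338.5 in Elane-negative cells.

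Il12a in relation to Elane ran one way in the untreated libraries and the other in the imatinib ones, a change of sign that was not tested. At 1000 UMIs it was found in 2.47% of Elane-positive and 1.70% of Elane-negative CML imatinib cells and in 2.69% and 1.46% of WT imatinib cells, with overlapping intervals; without thinning those of WT imatinib cells were apart (4.27% against 0.755%). In CML untreated cells the shares were 3.36% with Elane and 6.16% without, and in WT untreated cells 4.38% and 10.5%, with intervals apart; at 500 UMIs and without thinning the intervals of both untreated libraries overlapped. Without thinning, 145 of the 151 Il12a-positive WT imatinib cells (96.0%) had Elane, against 81.0% of all cells of that library.

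**Figure D3:**
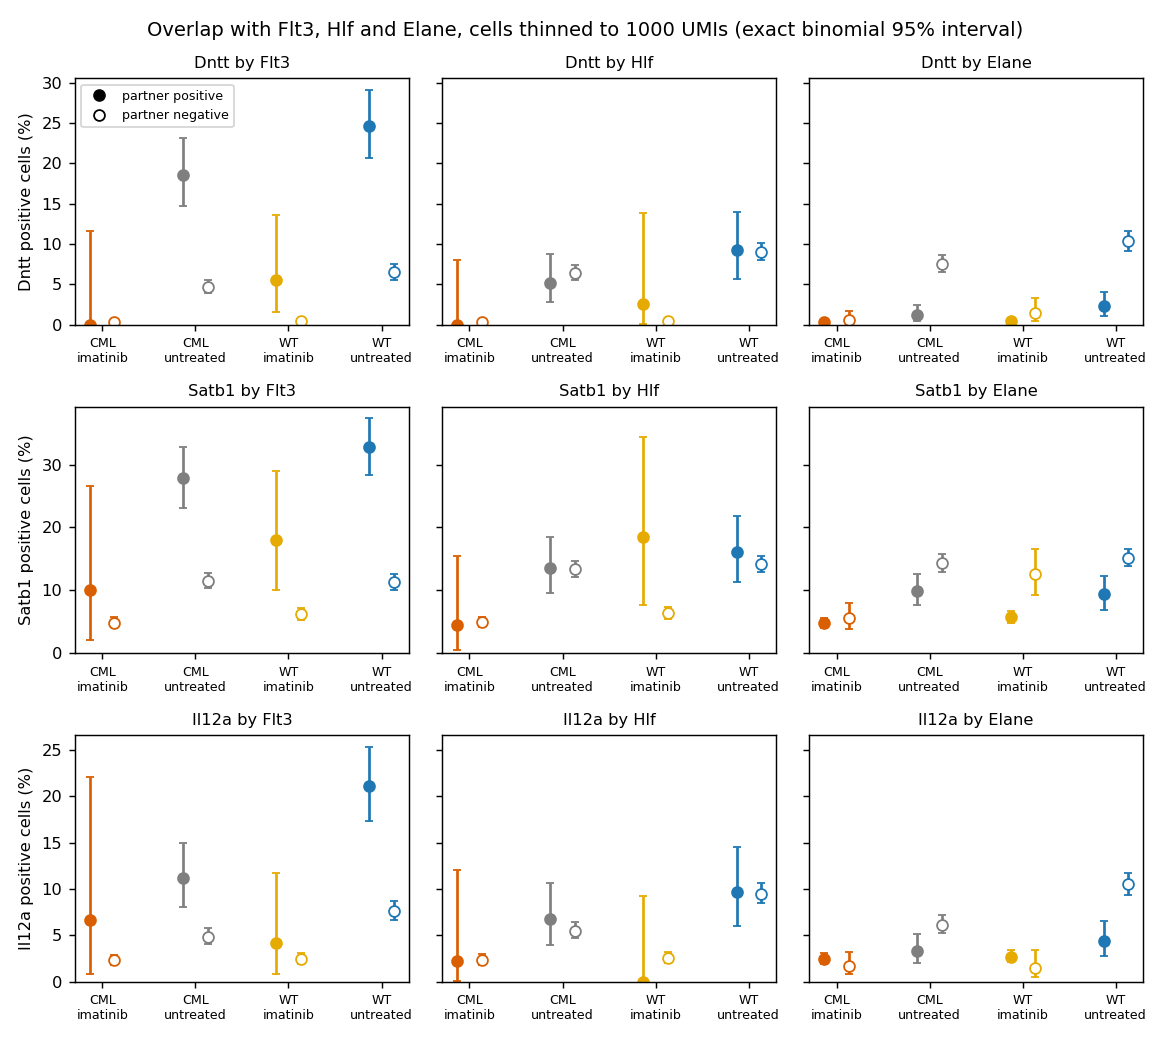
Percent of cells with a UMI of Dntt, Satb1 or Il12a (rows) among cells with (filled) and without (open) a UMI of Flt3, Hlf or Elane (columns), all cells thinned to 1000 UMIs, by library; error lines are exact binomial 95% intervals. In untreated cells all 3 genes are more frequent with Flt3 and less frequent with Elane, for example 24.7% against 6.53% of WT untreated cells for Dntt with and without Flt3.

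Each of the 3 genes was more frequent in untreated cells that had another of them. At 1000 UMIs, Dntt was in 18.4% of Satb1-positive and 4.42% of Satb1-negative CML untreated cells and in 27.3% and 6.04% of WT untreated cells. It was in 22.9% of Il12a-positive and 5.31% of Il12a-negative CML untreated cells and in 29.4% and 6.93% of WT untreated cells. Satb1 was in 27.6% of Il12a-positive and 12.6% of Il12a-negative CML untreated cells and in 31.8% and 12.4% of WT untreated cells. At full depth most untreated cells with any of the 3 genes had exactly 1 of them, 890 cells in the CML and 772 in the WT library. All 3 genes were in 112 CML untreated cells (3.69%) and 183 WT untreated cells (6.04%), and in 0 of 5139 CML imatinib and 0 of 4187 WT imatinib cells, which allows up to 0.0584% and 0.0717%.

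Cells with more Dntt UMIs more often had Satb1, Il12a and Flt3. In the CML untreated library, Satb1 at 1000 UMIs was in 9.60% of cells with no Dntt UMI, 29.3% with 1 to 4 and 49.3% with 5 or more. In the WT untreated library it was in 9.72%, 36.0% and 47.3% of the same classes. Flt3 was in 9.53%, 25.1% and 37.1% of the CML untreated classes and 8.96%, 30.9% and 46.7% of the WT untreated ones. Il12a ran at 4.89%, 11.6% and 23.6% (CML untreated) and at 6.39%, 29.2% and 35.7% (WT untreated), while Elane ran the other way, at 20.8%, 6.98% and 2.14% (CML untreated) and 17.5%, 6.78% and 2.20% (WT untreated). Hlf showed no such order in either library, at 8.93%, 10.7% and 6.43% (CML untreated) and 7.47%, 6.36% and 8.24% (WT untreated). For Satb1, Flt3, Il12a and Elane the intervals of cells with no Dntt UMI and with 1 to 4 were apart in both libraries. Those of 1 to 4 and 5 or more overlapped for Satb1 and Il12a in WT untreated cells. They also overlapped for Flt3 in CML untreated cells and for Elane in both libraries. The classes themselves were set at full depth, where cells with 5 or more Dntt UMIs had a median of 6957.5 UMIs (CML untreated) and 3938.5 UMIs (WT untreated).

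**Figure D4:**
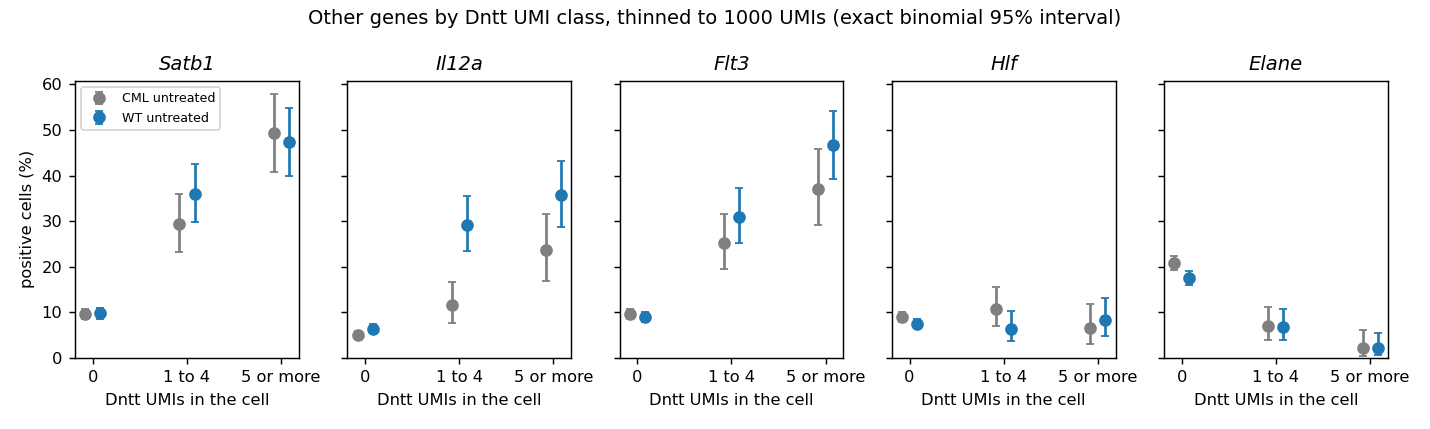
Percent of cells with a UMI of Satb1, Il12a, Flt3, Hlf or Elane, after thinning to 1000 UMIs, by the number of Dntt UMIs in the cell, for the CML untreated (left point of each pair) and WT untreated libraries; error lines are exact binomial 95% intervals. Satb1, Il12a and Flt3 are more frequent and Elane less frequent with more Dntt, Satb1 reaching 49.3% (CML untreated) and 47.3% (WT untreated).

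Cells were then grouped by expression, leaving these 3 genes, Flt3, Hlf and Elane out of the grouping. A cluster of 3869 cells led by Rgs1, Egr1, Ctla2a and Dntt held 1912 CML untreated and 1839 WT untreated cells, but only 39 CML imatinib and 79 WT imatinib cells. Too few fixed markers led it for a cell type name. At a finer resolution of 1.0 a cluster of 2342 cells led by Dntt was named lymphoid-primed-like, from a marker list that holds the 3 genes themselves. That resolution also gave a megakaryocyte and platelet-like cluster led by Pf4, with 595 CML untreated and 625 WT untreated cells. The cluster of 3869 cells is therefore not taken as lymphoid-primed. This cluster of 3869 cells held 88.4% of the Dntt, 75.1% of the Satb1 and 82.4% of the Il12a UMIs of the CML untreated library, and 80.9%, 65.2% and 72.5% of those of the WT untreated library. It also held most of the cells, 1912 of 3032 (CML untreated) and 1839 of 3030 (WT untreated). Satb1 had 230 CPM in it against 176 CPM over all CML untreated cells, and 208 against 171 CPM in WT untreated cells. Dntt had 189 against 123 CPM (CML untreated) and 291 against 192 CPM (WT untreated). Il12a had 118 against 82.4 CPM and 147 against 108 CPM. In the imatinib libraries the largest share of Dntt UMIs fell instead in an unnamed cluster of 4645 shallow cells (43.6% in CML, 60.9% in WT), and the largest share of Il12a UMIs in the granulocyte-monocyte progenitor-like cluster (52.5% in CML, 60.3% in WT). The shallow cluster held 2348 of 5139 CML imatinib and 1928 of 4187 WT imatinib cells. The granulocyte-monocyte progenitor-like cluster held 1078 (CML imatinib) and 1267 (WT imatinib) cells.

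Within the unnamed shallow cluster, Dntt had 12.3 CPM in CML imatinib and 245 CPM in CML untreated cells (log2 ratio -4.31, -4.92 to -3.73), and 18.9 CPM in WT imatinib and 163 CPM in WT untreated cells (-3.11, -3.73 to -2.49). Il12a had 30.5 CPM in CML imatinib and 133 CPM in CML untreated cells (-2.13), and 21.2 CPM in WT imatinib and 157 CPM in WT untreated cells (-2.89). Satb1 was closer, with 96.9 CPM in CML imatinib and 143 CPM in CML untreated cells (-0.56) and 129 CPM in WT imatinib and 204 CPM in WT untreated cells (-0.66), both under 2-fold. The untreated values rest on 169 (CML) and 200 (WT) cells. In the cluster that held most of the untreated UMIs, the WT imatinib library had 79 cells and the CML imatinib library only 39, too few for a ratio. There Dntt had 53.3 CPM in WT imatinib, from 6 UMIs, and 291 CPM in WT untreated cells (-2.45, -3.89 to -1.32), and Il12a had 2 UMIs in WT imatinib against 1034 in WT untreated cells. Satb1 had 231 CPM in WT imatinib and 208 CPM in WT untreated cells (0.15, -0.47 to 0.71), an interval that included 0.

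In monocyte and macrophage-like cells Satb1 had 48.8 CPM (CML imatinib), 129 CPM (CML untreated), 53.1 CPM (WT imatinib) and 148 CPM (WT untreated), and Il12a had 15.9 CPM in WT imatinib against 87.3 CPM in WT untreated cells. Dntt had 0 UMIs in these cells of the CML imatinib library, against 120 in CML untreated, and 2 UMIs in WT imatinib, against 246 in WT untreated. Between the untreated libraries, Dntt in these cells had 21.9 CPM in CML untreated and 72.3 CPM in WT untreated cells (-1.72, -2.05 to -1.40). Il12a had 40.1 CPM in CML untreated and 87.3 CPM in WT untreated cells (-1.12, -1.38 to -0.86). Both ratios were past 2-fold, while that of Satb1 was under it (-0.20). In erythroid-like cells Dntt had 6 UMIs in CML untreated and 22 in WT untreated cells (-2.77, -4.36 to -1.42). These came from only 4 of 202 CML untreated (1.98%) and 3 of 185 WT untreated (1.62%) cells, shares whose intervals overlapped. The interval on UMIs does not cover such gathering in few cells, so no difference is read from it. In the shallow cluster Dntt had 245 CPM in CML untreated cells, from 99 UMIs, and 163 CPM in WT untreated cells, from 52 UMIs (0.59). The same limit holds for this ratio and for that of Dntt in monocyte and macrophage-like cells. No direction between the untreated libraries is read from either. Granulocyte-monocyte progenitor-like cells of WT mice did not show the lower imatinib levels of the monocyte and macrophage-like cells. Il12a had 30.2 CPM in WT imatinib and 22.2 CPM in WT untreated cells (log2 ratio 0.45, -0.48 to 1.54). Satb1 had 55.2 CPM in WT imatinib and 26.6 CPM in WT untreated cells (1.05, 0.22 to 2.03). The untreated values came from 10 and 12 UMIs, and the CML untreated library had only 45 such cells. T cell-like cells, of which the untreated libraries held 147 (CML) and 158 (WT) and the imatinib libraries 1 (CML) and 8 (WT), had 209 CPM (CML untreated) and 436 CPM (WT untreated) of Satb1 (-1.06, -1.45 to -0.69). They also held Dntt, at 177 CPM from 77 UMIs (CML untreated) and 350 CPM from 135 UMIs (WT untreated). The WT untreated value lay above the 291 CPM of the cluster that held most of the untreated Dntt UMIs. Leaving the T cell-like and plasma cell-like clusters out kept all 3 genes at least 2-fold lower with imatinib in both CML and WT mice. No cluster was named B cell-like, so none was left out as such.

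**Figure D5:**
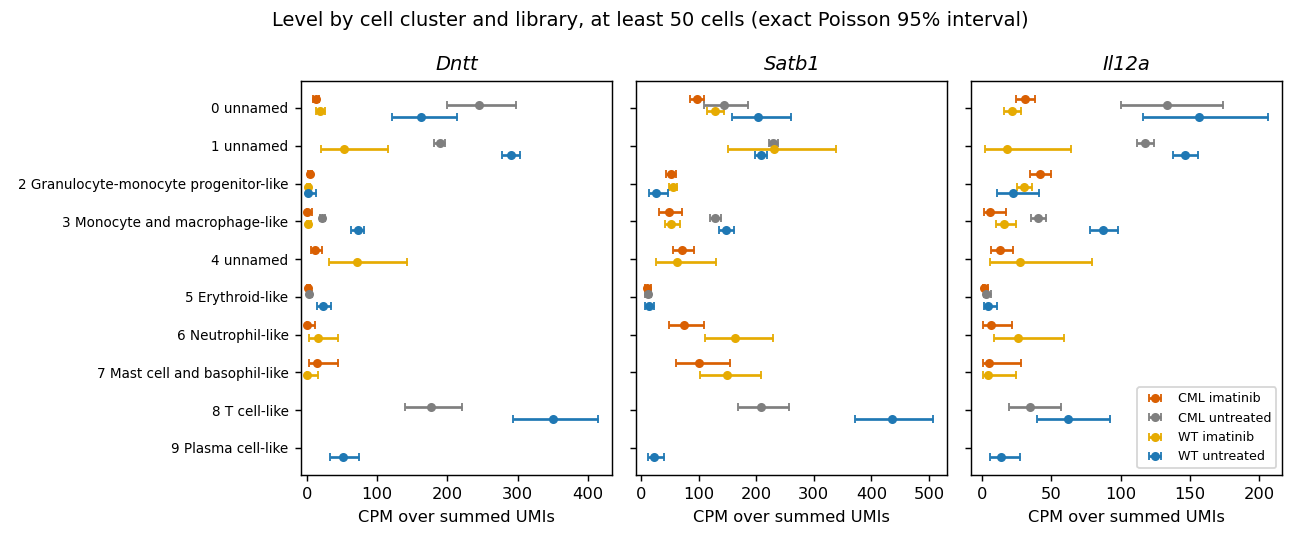
Level of Dntt, Satb1 and Il12a by cell cluster (rows) and library (colours), in CPM, for clusters with at least 50 cells of that library; error lines are exact Poisson 95% intervals. In cluster 0, the shallow unnamed one, Dntt stands at 12.3 CPM in CML imatinib against 245 CPM in CML untreated cells, and in T cell-like cells Satb1 reaches 436 CPM in the WT untreated library.

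Markers of other cell types also differed between the libraries, not always in the same direction in CML and WT mice. The summed level of the neutrophil markers, all 9 of which were detected in every library, was 9251 CPM (CML imatinib), 63.4 CPM (CML untreated), 6371 CPM (WT imatinib) and 31.5 CPM (WT untreated). The 8 granulocyte-monocyte progenitor markers summed to 20571 CPM (CML imatinib), 6205 CPM (CML untreated), 27204 CPM (WT imatinib) and 6714 CPM (WT untreated). The 10 T cell markers summed to 16.4 CPM (CML imatinib, with Trbc1 at 0), 136 CPM (CML untreated), 20.5 CPM (WT imatinib) and 135 CPM (WT untreated). The 8 plasma cell markers summed to 62.6 CPM (CML imatinib, with Iglv1 at 0), 6905 CPM (CML untreated), 927 CPM (WT imatinib) and 23737 CPM (WT untreated). The 9 mast cell and basophil markers summed to 2000 CPM (CML imatinib), 859 CPM (CML untreated), 1449 CPM (WT imatinib) and 182 CPM (WT untreated). The summed levels of the erythroid and of the B cell markers were higher with imatinib in CML mice and lower in WT mice. The 10 erythroid markers summed to 3380 CPM (CML imatinib), 997 CPM (CML untreated), 91.8 CPM (WT imatinib) and 800 CPM (WT untreated). The 8 B cell markers summed to 32.6 CPM (CML imatinib), 22.7 CPM (CML untreated), 24.5 CPM (WT imatinib) and 41.6 CPM (WT untreated). These markers did not move together in CML mice. Ebf1 (9.12 CPM in CML imatinib, 2.77 CPM in CML untreated) and Pax5 (3.14 and 1.27 CPM) were higher with imatinib. Cd79a (1.47 and 7.14 CPM) and Vpreb1 (2.62 and 2.87 CPM) were lower. The part of these shifts in the levels of Dntt, Satb1 and Il12a was not tested.

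Of 30 other genes of the lymphoid program, 11 were measured between CML imatinib and CML untreated cells, 5 at least 2-fold lower and 1 higher, where 7.95% of all measured genes were lower and 9.4% higher. Their median log2 ratio was -0.90, against -0.05 over all measured genes. The lower ones were Flt3 (-3.54), Mef2c (-2.13), Runx2 (-1.33), Tcf4 (-1.21) and Il2rg (-1.03), and the higher one was Gfi1 (1.22), a transcriptional repressor active in granulocyte as well as lymphoid precursors. Genes of the list under the floor for measurement went both ways. The kinase gene Lck (6.92 CPM in CML imatinib and 29.1 CPM in CML untreated cells, log2 ratio -2.07) and Wfdc17 (5.45 and 22.0 CPM, -2.02) were lower. Ebf1 (9.12 and 2.77 CPM, 1.72) and Pax5 (3.14 and 1.27 CPM, 1.31) were higher, from few UMIs. Mef2c, a transcription factor of lymphoid-primed progenitors, had 62.9 CPM in CML imatinib and 275 CPM in CML untreated cells. Between WT imatinib and WT untreated cells 13 were measured, of which 5 were lower and 1 higher, where 5.45% of all measured genes were lower and 7.58% higher, and their median was -0.78 against -0.05 over all genes. The untreated pair and the imatinib pair, with 12 and 11 measured, had none 2-fold apart. The lymphoid list was drawn up with earlier results of these data known.

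Genes that work with each of the 3 were set beside them. For Dntt, 0 of the 12 end joining and V(D)J genes were measured between CML imatinib and CML untreated cells. Xrcc6, which encodes the DNA end-binding protein Ku70, had 46.4 CPM in CML imatinib and 45.6 CPM in CML untreated cells (log2 ratio 0.03). In WT mice it was measured and had 35.3 CPM in WT imatinib and 57.5 CPM in WT untreated cells (-0.70, -0.90 to -0.51), under 2-fold. The recombinase genes Rag1 and Rag2 had 1.78 and 4.09 CPM in CML imatinib cells and 0.893 and 1.74 CPM in CML untreated cells, and 1.58 and 3.52 CPM in WT imatinib cells and 0.836 and 3.57 CPM in WT untreated cells, from 11 to 47 UMIs. For Satb1, 8 of 9 chromatin organisers and partners were measured, and none was 2-fold apart in any of the 4 comparisons. Of these, Smc3, a cohesin subunit, was the lowest with imatinib in CML mice, at 219 CPM in CML imatinib and 358 CPM in CML untreated cells (log2 ratio -0.71), followed by Cux1 (-0.69), Rad21 (-0.53) and Smarca5 (-0.40).

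For Il12a, 1 of 9 genes of the IL-12 family was measured in that pair of libraries, the signalling kinase Jak2, at 50.6 CPM in CML imatinib and 33.7 CPM in CML untreated cells (log2 ratio 0.59). Il12b, which encodes the other subunit of interleukin 12, had 2.52 CPM (CML imatinib), 0.893 CPM (CML untreated), 0.606 CPM (WT imatinib) and 1.44 CPM (WT untreated), from 5 to 24 UMIs a library. Ebi3, the partner in interleukin 35, stayed under the floor for measurement and was higher with imatinib where Il12a was lower, with 25.7 CPM (CML imatinib), 8.32 CPM (CML untreated), 34.7 CPM (WT imatinib) and 15.8 CPM (WT untreated). Of the signalling genes under the floor, Tyk2 had a log2 ratio of 0.57 and Stat4 one of -0.54 between CML imatinib and CML untreated cells.

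The genes most like each of the 3 were taken over 26 sums of 1 cluster in 1 library, among 10023 genes, by Pearson's r of log2(CPM + 10). These sums share libraries and depths, and r is given as a description. For Dntt they were Itm2a (0.87), Pim2 (0.87), Rgs1 (0.85), Gem (0.85) and Hes1 (0.84), and for Satb1 they were Tes (0.88), Ccng2 (0.86), Rgs2 (0.83), Akap13 (0.83) and Lpp (0.83). For Il12a they were Cox6a2 (0.81), Runx2 (0.80), Fchsd2 (0.80), Flt3 (0.79) and Dntt itself (0.78). With each library's mean taken off, Itm2a and Pim2 led for Dntt and Tes and Ccng2 for Satb1 again, while Tmem59 (0.82) led for Il12a.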

How the data were processed

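The deposited files hold, per cell, a normalized signal that the authors scaled to a nearly constant sum per cell. Partek 8.0, Bowtie 1.1.1 and GRCm38 (mm10) are listed per the submitters' processing notes, without their roles. Every value was a whole multiple of its cell's smallest value (100% within 0.02), and dividing by it recovered UMI counts. Headers run 1 name longer than the columns of values, so cells were taken by position.

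Cells with at least 500 UMIs, at least 200 genes and at most 20% mitochondrial UMIs were kept. Their UMIs were summed per gene and scaled to CPM; log2 ratios have exact conditional binomial and shares exact (Clopper-Pearson) 95% intervals. These cover counting error only, since each group has 1 library. Zeros are given with a limit of 3 counts. A call needs a 2-fold difference and 50 CPM and 50 UMIs in the higher library. Cells were thinned to 500 or 1000 UMIs by a seeded draw without replacement.

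Cells were scaled to 10000 UMIs, log transformed and grouped with scanpy 1.11.5 and leidenalg 0.10.2 (2000 variable genes, 30 components, 15 neighbours, resolution 0.5). A cluster name needs at least 3 of a class's markers among its 25 leading genes, 1 of them in the top 10, more than of any other class, and UMIs of that class's markers in 50% of the cells or more. Scrublet marked 0 cells in each library, so it did not work here; doublets were kept, and the top 5% of its scores were left out as an alternative. TMM factors came from edgeR 4.0.16. The ratio and its interval were tried on simulated data drawn as independent counts, which is what the interval assumes. That trial checks the calculation only. It cannot show whether the intervals hold where UMIs gather in few cells, as those of Dntt did.

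The members and lists were chosen with earlier results of these data known. From each list up to 4 genes past 20 CPM and 50 UMIs in one library, and with the largest absolute log2 ratio between CML imatinib and CML untreated cells were to be named; Runx2, Tcf4, Il2rg, Gfi1, Rag1, Rag2 and Il12b were named after their values were seen.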

Additional observations from a re-analysis of the deposited data

Results flagged for a closer look

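The difference between the share of Il12a-positive cells with and without Elane, at 1000 UMIs, had one sign in both imatinib libraries and the other in both untreated ones. It was 0.76 percentage points in CML imatinib, -2.79 in CML untreated, 1.23 in WT imatinib and -6.13 in WT untreated cells. For Hlf the difference for Il12a was -0.066 percentage points in CML imatinib, 1.30 in CML untreated, -2.58 in WT imatinib and 0.18 in WT untreated cells. Neither change of sign was tested, and for Hlf the intervals with and without it overlapped in all 4 libraries.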

How the results depend on the processing

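Under 12 alternatives, 3 of them chosen after the data were seen, Dntt, Satb1 and Il12a stayed lower with imatinib in CML and in WT mice, at least 2-fold except Satb1 in WT mice, as given above. The log2 ratio in CML mice ran from -4.34 to -3.41 for Dntt, -1.83 to -1.09 for Satb1 and -2.14 to -1.31 for Il12a. TMM scaling shifts every ratio, by -0.32 in CML and -0.25 in WT mice with against without imatinib, by -0.17 between the untreated and by -0.24 between the imatinib libraries.

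Genes of the lymphoid program at least 2-fold apart numbered 6 in both CML and WT mice. With a floor of 10 CPM and 20 UMIs they numbered 11 of 19 measured (CML) and 12 of 19 (WT), where 19.4% and 15.1% of all genes were apart. With cells of 1000 to 3000 UMIs they numbered 11 of 15 (CML) and 10 of 15 (WT), where 23.3% and 21.5% of all genes were, and with thinning to 500 UMIs 3 of 13 in WT mice, where 14.5% were. Between the untreated libraries the lower floor gave 1 of 20 (1.11% of all genes) and the cells of 1000 to 3000 UMIs 2 of 16 (1.67%), against 0, and with those cells 2 of the 3 genes, Dntt and Il12a, were apart.

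The shares of positive cells in imatinib minus untreated libraries, at 500 UMIs, were -4.06 (Dntt), -4.29 (Satb1) and -3.03 (Il12a) percentage points in CML and -5.95, -3.84 and -4.31 in WT mice. At 1000 UMIs they were -5.91 (Dntt) and -8.49 (Satb1) in CML and -8.52, -7.74 and -6.99 (Il12a) in WT mice. Asking for 2 UMIs at a depth of 500 gave -1.38, -0.62 and -0.46 in CML and -2.71, -0.77 and -0.65 in WT mice. For Il12a, CML untreated minus WT untreated was -3.93 at 1000 UMIs, with intervals apart, against -1.09 at 500, where they overlapped.

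Of the 9 pairs of Dntt, Satb1 or Il12a with Flt3, Hlf or Elane, 0 had intervals apart in CML imatinib cells at 1000 UMIs, 3 without thinning (Dntt and Satb1 with Flt3, Satb1 with Hlf) and 2 at 500 UMIs (Dntt with Flt3, Satb1 with Hlf). The share of Satb1 with minus without Elane turned to 5.72 (CML untreated) and 6.13 (WT untreated) percentage points without thinning; the cause was not tested. No paired analysis was possible because each group has 1 library. With few UMIs of Dntt in the imatinib libraries, its overlaps there rest on at most 36 cells.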
